A study of Mus musculus with 9 samples.

Results

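The genes described here are 9 cell adhesion genes, Itgam, Itgal, Itgax, Itgb2, Itga4, Itgb1, Itgb7, Selplg and Cd44, which were taken by symbol from the 23284 genes that have an expression value in every sample. They were measured by RNA-sequencing in 9 samples of myeloid-derived suppressor cells (MDSCs), immature myeloid cells that accumulate in tumour-bearing animals and restrain T cells. All cells came from the spleens of mice that carried spindle cell tumour (SCT) allografts, and the values are FPKM (sequenced fragments scaled by exon length and by library size), so levels can be compared between genes per unit of exon length. The 3 groups, with 3 samples each, were polymorphonuclear (PMN-) MDSCs and monocytic (Mo-) MDSCs from wild-type (WT) C57BL/6J mice, and Mo-MDSCs from mice labelled C57BL/6 that lack both p16 and p21 (p16/p21-DKO).

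The labels give an age of 3 weeks for every sample, and the study's methods give the same 3 weeks as the time from tumour injection to collection. The methods give the mice an age at tumour injection well above 3 weeks, so the label was not read as their age. PMN-MDSCs were isolated as Ly6G+ cells and Mo-MDSCs as Ly6G- Gr-1+ cells with a magnetic bead kit, so none of the 9 genes encodes a sorted antigen. The mice themselves, not only the sorted cells, lacked both genes, no DKO PMN-MDSC sample was analysed here, and no source used here says whether replicates were separate or pooled animals. The p-values therefore measure only the spread between these samples. The 2 strain labels differ between WT and DKO samples, so a strain difference and the deletion cannot be told apart.

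Integrins are pairs of an α and a β chain that hold leukocytes to vessel walls, other cells and extracellular matrix. The β2 chain (Itgb2, CD18) pairs with αL (Itgal, LFA-1), αM (Itgam, Mac-1 or CD11b) and αX (Itgax, CD11c), the α4 chain (Itga4) pairs with β1 (Itgb1, giving VLA-4) or β7 (Itgb7), and each chain reaches the cell surface mainly as part of a pair. Selplg encodes PSGL-1, the main leukocyte ligand of P-selectin, which starts rolling on activated endothelium before integrins arrest the cell. Cd44 encodes the receptor for the matrix sugar hyaluronan. Neutrophils are known for high β2 integrins and PSGL-1, and monocytes use VLA-4 together with β2 integrins.

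In the GENCODE annotation of GRCm38, Itgal (chr7:127296260-127335138), Itgam (chr7:128062640-128118491) and Itgax (chr7:128129547-128150657) lie on the plus strand of chromosome 7, and Itgad, which encodes the remaining β2 partner chain αD, follows at chr7:128154376-128223816. Itgb2 lies at chr10:77530252-77565708, Itga4 at chr2:79255426-79333123 and Itgb1 at chr8:128685654-128733200, all on the plus strand. Itgb7 (chr15:102215995-102231944), Selplg (chr5:113818536-113832644) and Cd44 (chr2:102811141-102901665) lie on the minus strand. The values are sums over whole genes and do not separate splice forms such as those of Cd44. Itga4 overlaps Cerkl on the opposite strand and Itgam overlaps the gene model Gm49368 on its own strand, and how the authors' counting treated such reads is not given in the sources used here.

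RefSeq promoter windows (GRCm38.p6) were matched for 6 of the 9 genes, namely Itgam, Itgax, Itga4, Itgb1, Itgb7 and Cd44. The 150 bases before the start are shown for 4 of them because Itgam and Itgax, which are neighbours, were both lower in the monocytic cells, while Itga4 and Itgb7, whose products pair with each other, were both higher. Capitals mark GAGGAA (a core bound by ETS factors such as PU.1) and TGTGGT (a core bound by RUNX factors) on either strand. The C/EBP motif TTGCNNAA was searched as well and did not occur.
Itgam (chr7:128062490-128062639, plus strand): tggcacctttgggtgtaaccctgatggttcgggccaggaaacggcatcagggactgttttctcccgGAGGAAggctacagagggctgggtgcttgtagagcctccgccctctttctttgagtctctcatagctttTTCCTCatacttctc
Itgax (chr7:128129400-128129549, plus strand): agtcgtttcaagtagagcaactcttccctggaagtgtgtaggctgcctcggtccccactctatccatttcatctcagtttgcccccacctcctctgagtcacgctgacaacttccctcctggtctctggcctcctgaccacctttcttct
Itga4 (chr2:79255276-79255425, plus strand): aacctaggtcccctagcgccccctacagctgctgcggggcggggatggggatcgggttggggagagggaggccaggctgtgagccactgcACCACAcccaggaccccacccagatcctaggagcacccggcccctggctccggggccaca
Itgb7 (chr15:102231936-102232085, minus strand): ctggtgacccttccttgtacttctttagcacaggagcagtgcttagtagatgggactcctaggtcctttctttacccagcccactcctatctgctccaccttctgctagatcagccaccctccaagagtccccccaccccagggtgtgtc
In the 250 bases before the start, GAGGAA occurred in 3 of the 6 windows, those of Itgam, Itgb1 and Cd44, against 23.3% of 32851 promoters. In Itgam it stood at -84 to -79 and, on the opposite strand, at -15 to -10. TGTGGT occurred in 1 of the 6, that of Itga4 at -60 to -55, against 14% of all promoters. TTGCNNAA occurred in 0 of the 6 and in 9.56% of all promoters. GGGCGG, the GC box, occurred in Itgam, Itga4 and Itgb1, against 32.7% of promoters, and TATAAA in 0 of the 6, against 12.4%. These matches did not separate the genes by their direction between PMN- and Mo-MDSCs, since Itgam and Cd44 were lower in Mo-MDSCs and Itgb1 was higher.

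Read depth is not known from FPKM. Relative depth between samples ranged from 0.809 to 1.31, between 11299 and 11418 genes reached 1 FPKM, and the total FPKM ranged from 494252 to 916642 while the upper quartile stayed between 22.0 and 24.5. The library numbers in the labels place replicate 1 of each group in an earlier run of numbers than replicates 2 and 3, and a result within the later run is given where it differed. Cdkn1a, which encodes p21, was measured at 5.55, 8.52 and 6.00 FPKM in DKO and at 8.18, 6.46 and 8.04 FPKM in WT Mo-MDSCs. Cdkn2a, which encodes p16 and p19Arf, was at 0.26, 0.59 and 0 FPKM in DKO and at 0.72, 0.77 and 0.43 FPKM in WT Mo-MDSCs. Which exons the knockout removes is not given in the sources used here, so these sums over whole genes do not check the labels.

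Of the markers of the 2 cell types, limma called 6 of 9 neutrophil genes lower and 9 of 10 monocyte genes higher in WT Mo- than in PMN-MDSCs. The granule genes Ltf, Camp and Ngp did not pass, with limma adjusted p of 0.383, 0.602 and 0.587, nor did Csf1r, the receptor of the macrophage growth factor, which was at 674 to 841 FPKM in PMN-MDSCs and 750 to 853 FPKM in WT Mo-MDSCs (limma, adjusted p = 0.578). Ccr2, a monocyte chemokine receptor, was at 281 to 362 FPKM in WT Mo-MDSCs, 160 to 202 in DKO Mo-MDSCs and 2.36 to 2.51 in PMN-MDSCs, and Cxcr2, a neutrophil chemokine receptor, was at 590 to 875 FPKM in PMN-MDSCs and 5.37 to 18.6 in both Mo-MDSC groups together. Ly6g was not analysed here. Other spleen cells were also represented, as the plot of marker sums shows. The sum of 7 B cell markers, all 7 above 1 FPKM on average in every group, was 1556 to 1800 FPKM in the PMN-MDSC samples, 1129 to 1279 FPKM in the WT Mo-MDSC samples and 1197 to 1535 FPKM in the DKO ones. The sum of 7 red-pulp macrophage markers, again all 7 above 1 FPKM, was 7084 to 7920, 4470 to 5372 and 5664 to 8069 FPKM in the same order. B cells and macrophages express several of the adhesion genes themselves, and the part of such cells in the results was not tested. In sorted bulk samples, fewer cells of a type and less RNA per cell cannot be told apart.

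**Figure D1:**
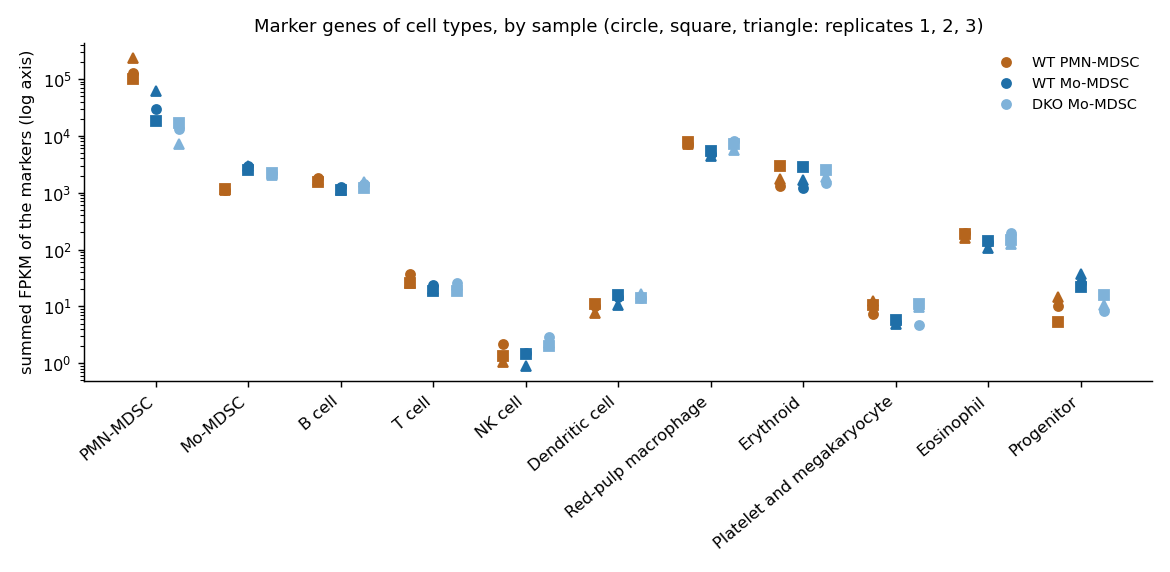
Summed FPKM of marker genes of 11 cell types in each of the 9 samples, on a log axis, with brown for WT PMN-MDSCs, dark blue for WT Mo-MDSCs and light blue for DKO Mo-MDSCs. Neutrophil markers were highest in all 3 PMN-MDSC samples, monocyte markers in the Mo-MDSC samples, and B cell and red-pulp macrophage markers were present in every sample.

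The first comparison asked how the adhesion genes differed between the 2 MDSC types of WT mice. Mo-MDSCs had less of all 3 β2 α chains among the 9 genes, of Itgb2, of Selplg and of Cd44, and more of Itga4, Itgb1 and Itgb7. All 9 genes passed the test, 3 higher and 6 lower in Mo-MDSCs, where 18.5% of the 11491 genes tested were called higher and 20.6% lower. A gene is called here when its adjusted p is below 0.05 in limma, a moderated linear model of log2(FPKM + 0.1). Benjamini-Hochberg adjustment was over all genes tested, and the fit did not pair same-numbered samples. The 3 Mo-MDSC samples lay outside the range of the 3 PMN-MDSC samples for each of the 9 genes, and among all genes tested 26.2% lay wholly above and 26.4% wholly below. The median absolute log2 fold change was 0.769 for the 9 genes and 0.288 for all genes, and the median signed values were -0.67 and 0.01.

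**Figure D2:**
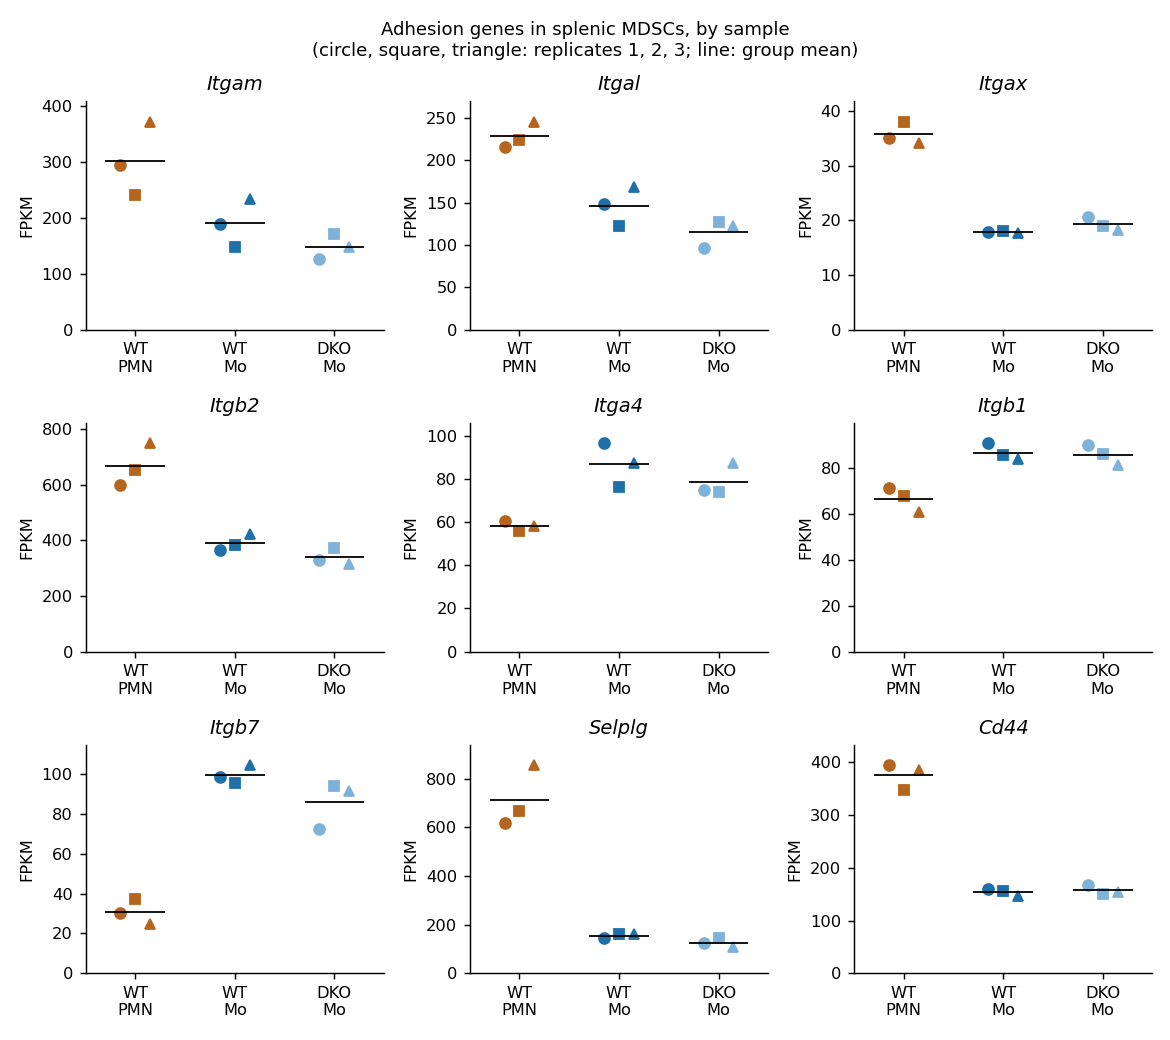
FPKM of the 9 adhesion genes in each sample, 1 panel per gene with the axis from 0; circles, squares and triangles are replicates 1, 2 and 3 and lines are group means. The WT PMN-MDSC samples lie apart from the WT Mo-MDSC samples in every panel, above them for Itgam, Itgal, Itgax, Itgb2, Selplg and Cd44 and below them for Itga4, Itgb1 and Itgb7.

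Itgb2, the chain shared by the β2 integrins, stood at 600, 653 and 748 FPKM in the PMN-MDSC samples, 366, 383 and 423 FPKM in the WT Mo-MDSC samples and 329, 372 and 316 FPKM in the DKO Mo-MDSC samples. It was the highest of the 9 genes in both Mo-MDSC groups, above 99.1% of all genes there. Its mean was 1.71-fold higher in PMN-MDSCs, at 667 FPKM ± 75.2 (SD, n = 3), than in WT Mo-MDSCs, at 391 FPKM ± 29.0 (SD, n = 3). On the log2 scale it fell by 0.77 from PMN- to WT Mo-MDSCs (SE 0.110, limma, adjusted p = 0.00179).

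Itgam encodes CD11b, the chain by which myeloid cells are commonly gated, and binds complement fragments and fibrinogen with Itgb2. Its level was 293, 240 and 371 FPKM in the PMN-MDSC samples, 189, 147 and 234 FPKM in the WT Mo-MDSC samples and 126, 171 and 148 FPKM in the DKO Mo-MDSC samples. The lowest PMN-MDSC sample lay only just above the highest WT Mo-MDSC sample, and replicate 3 was the highest sample in both WT groups. The log2 fold change was -0.67 (SE 0.210, limma, adjusted p = 0.0415), the weakest call of the 9. It was lost when any of PMN-MDSC replicate 1, PMN-MDSC replicate 3, WT Mo-MDSC replicate 1 or WT Mo-MDSC replicate 2 was left out (limma, adjusted p up to 0.115), under quantile normalization, where the value was -0.23 (limma, adjusted p = 0.314), and within replicates 2 and 3 (-0.69, limma, adjusted p = 0.174). Blocking on the replicate number left the value the same, with a limma adjusted p of 9.84e-05.

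In the WT groups, but not in the DKO samples, the order of the replicates for Itgam was also that of S100a8, a neutrophil alarmin. Of the other neutrophil markers, S100a9, Cxcr2, Ltf, Camp and Ngp had this order in both WT groups. Csf3r departed from it in PMN-MDSCs, and Retnlg and Mmp8 in WT Mo-MDSCs. S100a8 was at 55610, 41819 and 100402 FPKM in the PMN-MDSC replicates, 11980, 6472 and 23349 FPKM in the WT Mo-MDSC replicates and 5250, 6124 and 2306 FPKM in the DKO replicates. The summed neutrophil markers consisted mostly of S100a8 and S100a9. They spanned 99666 to 232737 FPKM in the PMN-MDSC samples, 17900 to 61874 FPKM in the WT Mo-MDSC samples and 7063 to 17126 FPKM in the DKO ones. Their part in the Itgam differences was not tested.

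Itgal, the αL chain that binds ICAM-1, stood at 216, 224 and 246 FPKM in the PMN-MDSC samples, 149, 122 and 168 FPKM in the WT Mo-MDSC samples and 96.2, 127 and 122 FPKM in the DKO Mo-MDSC samples. Its mean was 1.56-fold higher in PMN-MDSCs, with a log2 fold change of -0.65 from PMN- to WT Mo-MDSCs (SE 0.127, limma, adjusted p = 0.00638). Under quantile normalization the value was -0.26 and missed the threshold (limma, adjusted p = 0.0804). Every PMN-MDSC sample lay above every Mo-MDSC sample of either genotype.

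Itgax, the αX chain best known from dendritic cells, was the lowest of the 4 β2 genes in every group. It stood at 35.1, 38.1 and 34.2 FPKM in the PMN-MDSC samples, 17.8, 18.1 and 17.7 FPKM in the WT Mo-MDSC samples and 20.6, 18.9 and 18.3 FPKM in the DKO Mo-MDSC samples. The WT Mo-MDSC samples were almost the same, with an SD of 0.187 FPKM (n = 3), at 2.00-fold below the PMN-MDSC mean. The log2 fold change was -0.997 (SE 0.0720, limma, adjusted p = 7.95e-05). The sum of 7 dendritic cell markers was at most 16.3 FPKM in any sample. Of 4 such markers tested between the WT groups, limma called 2, Flt3 and Clec9a, higher in Mo-MDSCs and 0 lower. The part of dendritic cells in the Itgax values was not tested.

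The 4 β2 partner chains, Itgam, Itgal, Itgax and Itgad, summed to 777 FPKM ± 53.1 in PMN-MDSCs and 532 FPKM ± 44.6 in WT Mo-MDSCs (SD, n = 3 each). The sum per Itgb2 was 1.27, 1.12 and 1.12 in PMN-MDSCs and 1.43, 1.28 and 1.37 in WT Mo-MDSCs. The groups did not overlap, and the log2 of this ratio was 0.22 higher in Mo-MDSCs. The two-sided exact permutation p was 0.1, the smallest that 3 against 3 unpaired samples allow. This test and those that follow did not pair same-numbered samples. Itgb2 thus differed by a larger factor than the sum of its partners.

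Within that sum, Itgam held 38.6% ± 5.83 in PMN-MDSCs and 35.5% ± 5.24 in WT Mo-MDSCs (SD, n = 3 each), with overlapping samples. Itgal held 29.4% ± 1.08 and 27.4% ± 2.26, and Itgad, which is known from splenic macrophages, 27.4% ± 4.83 and 33.7% ± 7.14, again with overlap. Between same-numbered samples the Itgam share was lower in Mo-MDSCs in all 3 pairs (36.2% against 38.5%, 29.97% against 32.8% and 40.4% against 44.4%) and the Itgad share higher in all 3 (32.0% against 28.5%, 41.5% against 31.6% and 27.5% against 22.1%), while the Itgal share was lower in 2 of the 3. The Itgax share alone of the 4 did not overlap between the groups, with 4.62%, 5.19% and 4.09% in PMN-MDSCs and 3.40%, 3.68% and 3.06% in WT Mo-MDSCs (two-sided exact permutation p = 0.1). These are shares of transcript level per exon length, not of surface protein.

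**Figure D3:**
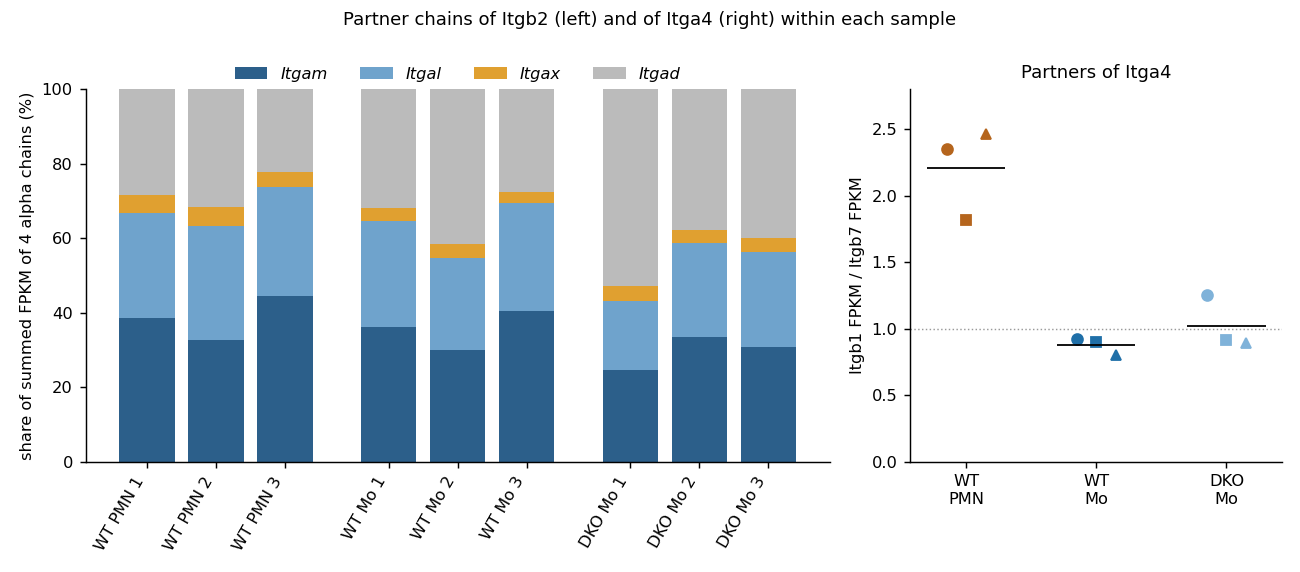
Left, share of each β2 partner chain (Itgam, Itgal, Itgax, Itgad) in their summed FPKM, as stacked bars for the 9 samples; right, Itgb1 over Itgb7 by group, with points for samples and lines for means. Itgad takes the largest share in DKO Mo-MDSC replicate 1 (52.8%), and Itgb1 exceeds Itgb7 in all 3 PMN-MDSC samples and in 1 DKO Mo-MDSC sample.

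Itga4, the α4 chain that binds VCAM-1 and fibronectin, stood at 60.4, 56.2 and 58.4 FPKM in the PMN-MDSC samples, 96.6, 76.6 and 87.3 FPKM in the WT Mo-MDSC samples and 75.2, 73.8 and 87.4 FPKM in the DKO Mo-MDSC samples. Its mean was 1.49-fold higher in WT Mo-MDSCs and the log2 fold change was 0.57 (SE 0.0977, limma, adjusted p = 0.00385). All 6 Mo-MDSC samples lay above all 3 PMN-MDSC samples.

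Itgb1, the β1 chain that also pairs with many matrix-binding α chains, differed least of the 9 genes. Its samples stood at 71.2, 67.7 and 60.7 FPKM in the PMN-MDSC samples, 90.6, 85.5 and 83.8 FPKM in the WT Mo-MDSC samples and 90.1, 85.9 and 81.3 FPKM in the DKO Mo-MDSC samples. WT Mo-MDSCs were 1.30-fold higher on average, with a log2 fold change of 0.38 (SE 0.0836, limma, adjusted p = 0.0103). The WT and DKO Mo-MDSC samples overlapped, and all 6 lay above the PMN-MDSC samples.

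Itgb7, whose product with α4 binds MAdCAM-1 in gut vessels, showed the largest rise. It stood at 30.3, 37.2 and 24.6 FPKM in the PMN-MDSC samples, 98.6, 95.4 and 104 FPKM in the WT Mo-MDSC samples and 72.1, 93.8 and 91.4 FPKM in the DKO Mo-MDSC samples. The WT Mo-MDSC mean was 3.24-fold the PMN-MDSC mean, with a log2 fold change of 1.71 (SE 0.145, limma, adjusted p = 0.000159). It was the lowest of the 9 genes in PMN-MDSCs, with a range that overlapped that of Itgax. In WT Mo-MDSCs its range overlapped that of Itga4 and lay above that of Itgb1, and in DKO Mo-MDSCs it overlapped both.

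The transcript ratio of the 2 α4 partners differed between the 2 cell types. Itgb1 over Itgb7 was 2.35, 1.82 and 2.46 in PMN-MDSCs and 0.919, 0.896 and 0.805 in WT Mo-MDSCs, so that every PMN-MDSC sample had more Itgb1 and every WT Mo-MDSC sample more Itgb7. The log2 ratio was 1.33 lower in Mo-MDSCs (two-sided exact permutation p = 0.1). Itga4 over the sum of Itgb1 and Itgb7 was 0.605 ± 0.0750 in PMN-MDSCs and 0.466 ± 0.0435 in WT Mo-MDSCs (SD, n = 3 each), without overlap. These are ratios of transcript level per exon length. Itgb1 also pairs with other α chains, so they do not measure α4 pairs at the surface.

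Selplg showed the largest difference of all 9 genes. It stood at 619, 668 and 854 FPKM in the PMN-MDSC samples, 144, 162 and 160 FPKM in the WT Mo-MDSC samples and 126, 144 and 109 FPKM in the DKO Mo-MDSC samples. The PMN-MDSC mean was 4.59-fold the WT Mo-MDSC mean, with a log2 fold change of -2.19 from PMN- to Mo-MDSCs (SE 0.132, limma, adjusted p = 3.94e-05). Selplg and Itgb2 had overlapping ranges at the top of the order in PMN-MDSCs, while in WT Mo-MDSCs Selplg lay below Itgb2 and overlapped Itgam and Cd44.

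Cd44 stood at 394, 348 and 385 FPKM in the PMN-MDSC samples, 160, 155 and 147 FPKM in the WT Mo-MDSC samples and 168, 150 and 154 FPKM in the DKO Mo-MDSC samples. The means were 376 FPKM ± 24.6 and 154 FPKM ± 6.09 in the WT groups (SD, n = 3 each), a 2.44-fold difference. The log2 fold change was -1.28 (SE 0.0816, limma, adjusted p = 5.00e-05). WT and DKO Mo-MDSC samples overlapped, and all 6 lay below the PMN-MDSC samples.

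The order of the 9 levels differed between the cell types. In PMN-MDSCs, Selplg and Itgb2 came first, followed by Cd44, Itgam and Itgal, whose neighbours overlapped, then Itgb1, Itga4, and last Itgax and Itgb7, which overlapped. In WT Mo-MDSCs Itgb2 stood alone at the top, and Itgam, Selplg, Cd44 and Itgal followed with overlapping neighbours. Itgb7, Itga4 and Itgb1 came next, also with overlapping neighbours, and Itgax came last. The DKO Mo-MDSC samples gave the same 4 tiers, with other orders within tiers. Among these, Cd44 lay above Selplg without overlap in DKO samples, at 150 to 168 against 109 to 144 FPKM. The B cell and red-pulp macrophage sums were lower in the WT Mo-MDSC than in the PMN-MDSC samples, the same direction as for the 6 genes that fell and the opposite of that for Itga4, Itgb1 and Itgb7.

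The second comparison asked whether loss of p16 and p21 went with a difference in these genes in Mo-MDSCs. None of the 9 passed the test in limma (0 of 9 called), where 0.166% of the 11451 genes tested were called higher and 0.0873% lower in DKO cells. At an unadjusted p below 0.05 there was 1 of the 9, Selplg, against 15% of all genes. By the thresholds of the study for lower genes, a fold below 0.75 with an unadjusted p below 0.05, 0 of the 9 passed, against 4.43% of all genes. In DKO samples 1 gene, Itgax, lay wholly above the WT samples, against 7.96% of all genes, and 2, Itgb7 and Selplg, wholly below, against 12.9%. The median log2 difference of the 9 genes was -0.21, beside -0.02 for all genes, and it was -0.03 under quantile normalization.

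**Figure D4:**
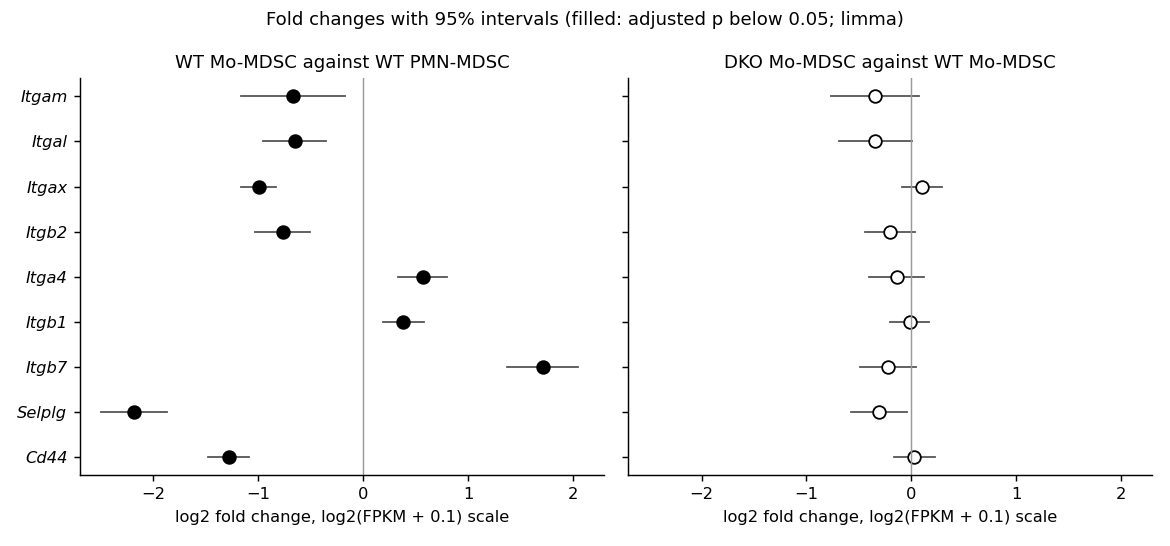
Log2 fold changes of the 9 genes on the log2(FPKM + 0.1) scale with 95% intervals from limma, for WT Mo- against PMN-MDSCs (left) and DKO against WT Mo-MDSCs (right); filled points have an adjusted p below 0.05. All 9 intervals on the left lie away from 0, and on the right 8 of 9 include it, Selplg being the exception before adjustment.

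Among the β2 genes, Itgam differed by -0.34 on the log2 scale between DKO and WT Mo-MDSCs (95% interval -0.77 to 0.08, limma, adjusted p = 0.410). Itgal differed by -0.34 (-0.69 to 0.01, limma, adjusted p = 0.340). Itgb2 differed by -0.21 (-0.45 to 0.03, limma, adjusted p = 0.389) and Itgax by 0.11 (-0.08 to 0.29, limma, adjusted p = 0.569). DKO replicate 1 was the lowest of the 6 Mo-MDSC samples for Itgam and Itgal and the highest for Itgax, and the value of Itgam was -0.23 without it and -0.18 without WT Mo-MDSC replicate 3. The intervals include 0 and also reach a fall of about the size of the PMN- to Mo-MDSC difference for Itgam and Itgal. A fall of that size was thus not excluded for Itgam and Itgal.

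The same sample stood apart in the β2 partner chains. Itgad made up 52.8% of their sum in DKO replicate 1, 37.7% and 39.9% in the other DKO samples and 27.5% to 41.5% in the WT Mo-MDSC samples (two-sided exact permutation p = 0.3). Itgad was at 272, 192 and 192 FPKM in DKO and at 167, 204 and 160 FPKM in WT Mo-MDSCs (log2 difference 0.29, limma, adjusted p = 0.431). The red-pulp macrophage sum was also highest in DKO replicate 1, at 8069 FPKM, beside 7141 and 5664 FPKM in the other DKO samples, and its part in these values was not tested. The sum of partner chains was 501 FPKM ± 17.9 in DKO and 532 FPKM ± 44.6 in WT Mo-MDSCs (SD, n = 3 each), and per Itgb2 it was 1.48 ± 0.104 and 1.36 ± 0.0725, with overlap. The Itgax share was higher in all 3 DKO samples, at 4.00%, 3.71% and 3.80%, than in the WT samples (two-sided exact permutation p = 0.1).

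Of the α4 integrin genes, Itga4 differed by -0.14 between DKO and WT Mo-MDSCs on the log2 scale (95% interval -0.40 to 0.13, limma, adjusted p = 0.591). Itgb1 differed by -0.02 (-0.20 to 0.17, limma, adjusted p = 0.941), the smallest difference of the 9, and its sign turned under 2 scalings. Itgb7 differed by -0.22 (-0.49 to 0.04, limma, adjusted p = 0.401), and its highest DKO sample, 93.8 FPKM, lay just below the lowest WT sample, 95.4 FPKM, while DKO replicate 1 lay far below all others. Itgb1 over Itgb7 was 1.25, 0.916 and 0.890 in DKO samples, overlapping the WT samples (two-sided exact permutation p = 0.5). Itga4 over the sum of both β chains was 0.460 ± 0.0478 (SD, n = 3), beside 0.466 in WT.

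Selplg came closest to the threshold, with a log2 difference of -0.31 (95% interval -0.58 to -0.04, limma, unadjusted p = 0.0309, adjusted p = 0.289). The highest DKO sample, 143.9 FPKM, lay just below the lowest WT sample, 144.2 FPKM. Cd44 differed by 0.03 (-0.17 to 0.22, limma, adjusted p = 0.899), with overlapping samples. For both genes the interval excludes a step as large as that between PMN- and WT Mo-MDSCs.

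The other adhesion genes were described from a list of 96 genes in 6 groups. In WT Mo- against PMN-MDSCs, 69 were tested and 34 called, 9 higher and 25 lower, beside 18.5% of all genes called higher and 20.6% lower. The median log2 fold change was -0.23 for the list and 0.01 for all genes. A fit that blocked on the replicate number called 51, 16 higher and 35 lower, while the share of all genes called in that fit was 27.6% higher and 29.7% lower. The split depended on the scaling, since quantile normalization gave 19 higher and 17 lower, beside 2511 higher and 2061 lower of all 11491 genes. The counts of the 6 groups that follow are to be read beside these shares over all genes.

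**Figure D5:**
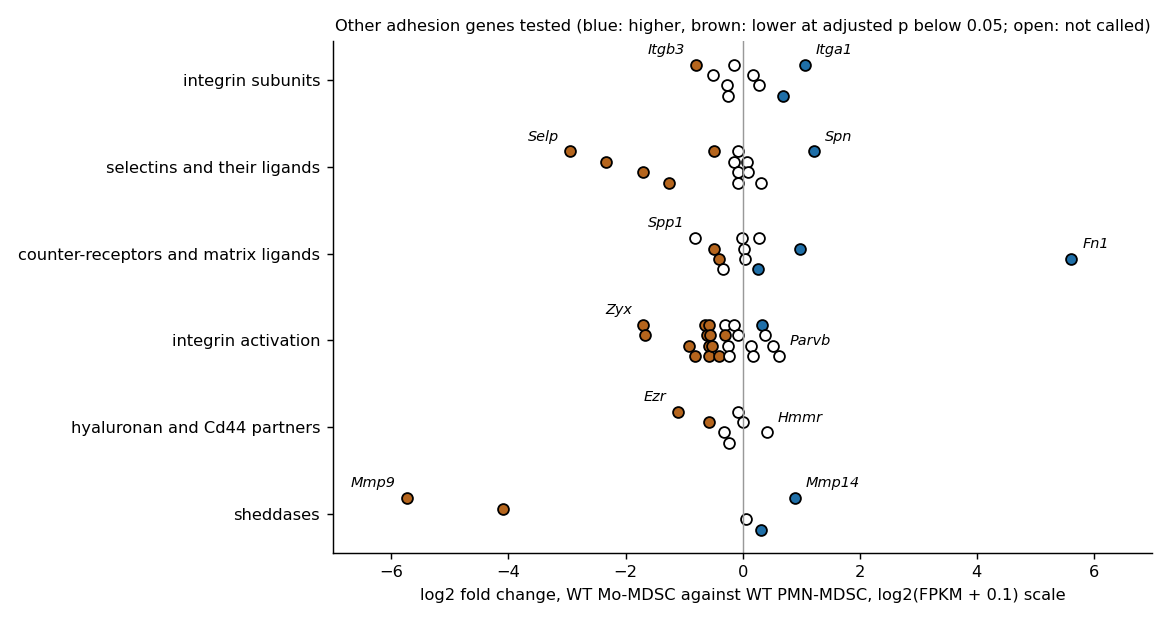
Log2 fold change of the 69 tested genes of the adhesion list, 1 point per gene and 1 row per group, for WT Mo- against WT PMN-MDSCs; blue points were called higher, brown points lower (limma, adjusted p below 0.05) and open points were not called. The widest values are Fn1 on the right (5.61) and Mmp9 (-5.74) and Adam8 (-4.09) on the left.

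Integrin activation, the group with the most genes tested, also held the most calls, 13 lower and 1 higher of 24. These became 8 lower and 7 higher under quantile normalization. Zyx (zyxin) and Pxn (paxillin), which sit at focal adhesions, had log2 fold changes of -1.70 (limma, adjusted p = 6.63e-05) and -1.66 (limma, adjusted p = 0.000103) from PMN- to WT Mo-MDSCs. Skap2, an adaptor in β2 integrin signalling, fell by 0.92 (limma, adjusted p = 0.00206). Dok1, an adaptor that binds integrin β tails, rose by 0.33 (limma, adjusted p = 0.00583).

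The other integrin chains split, with 2 higher and 1 lower of 9 tested. Itga1, a collagen-binding α chain that pairs with Itgb1, was low in both groups and rose by 1.06 (limma, adjusted p = 0.00850). Itgav, which pairs with several β chains, rose by 0.69 (limma, adjusted p = 0.0101), and its partner Itgb3 fell by 0.80 (limma, adjusted p = 0.00329).

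Of the selectins and the genes of their ligands, 5 were lower and 1 higher of 13 tested, the same counts as under quantile normalization. St3gal6, a sialyltransferase used to build selectin ligands, fell by 2.33 (limma, adjusted p = 3.13e-06) alongside Selplg, the protein that carries such sugars. Selp, P-selectin, was at 3.34 to 5.09 FPKM in PMN-MDSCs and 0.34 to 0.78 FPKM in WT Mo-MDSCs. It fell by 2.96 (limma, adjusted p = 0.000482) and is 1 of the 5 lower genes. Genes were tested if they reached 1 FPKM in 3 of the 6 samples, and Selp did so only through the PMN-MDSC samples. Its call is therefore given as a description only. The sum of 6 platelet and megakaryocyte markers was 7.24 to 12.3 FPKM in PMN- and 4.82 to 5.79 FPKM in WT Mo-MDSCs. The part of such cells in the Selp value was not tested. Spn, the sialomucin CD43, rose by 1.21 (limma, adjusted p = 0.00490).

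Ligands of the integrins gave 3 higher and 2 lower of 11 tested. Fn1, fibronectin, which α4β1 binds, was at 3.80 to 6.97 FPKM in PMN-MDSCs and 234 to 258 FPKM in WT Mo-MDSCs (log2 fold change 5.61, limma, adjusted p = 6.54e-06). F11r, the junctional molecule JAM-A, rose by 0.98 (limma, adjusted p = 0.00103) and Icam1, the ligand of LFA-1, by 0.27 (limma, adjusted p = 0.0194). Vcam1, the α4β1 ligand that red-pulp macrophages carry, differed by -0.49 (limma, adjusted p = 0.0237) and Pecam1 by -0.40 (limma, adjusted p = 0.00784), and neither call held under quantile normalization.

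Among the partners of Cd44 and hyaluronan, 2 of 7 tested were lower and 0 higher. They were the membrane-to-actin linkers Ezr (ezrin; log2 fold change -1.11, limma, adjusted p = 4.27e-05) and Msn (moesin; -0.57, limma, adjusted p = 0.0135), of which Msn was not called under quantile normalization. Of the 5 sheddases, proteases that cut adhesion molecules from the surface, 2 were lower and 2 higher. Mmp9 fell by 5.74 (limma, adjusted p = 2.22e-05) and Adam8 by 4.09 (limma, adjusted p = 3.66e-06), while Mmp14 rose by 0.89 (limma, adjusted p = 0.00932) and Adam17, which sheds many surface proteins, by 0.32 (limma, adjusted p = 0.0277).

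Between DKO and WT Mo-MDSCs, limma called 0 of the 69 genes of the list tested there, 17 of which had an unadjusted p below 0.05, against 15% of all genes, and the median was -0.04, beside -0.02 for all genes. By the thresholds of the study 6 of the 69 passed, all lower, namely Spn, Fut7, St3gal4, Fn1, Vcl and Zyx, beside the 4.43% of all genes. The gene with the smallest p in each group was Itgae (log2 difference 0.85, limma, adjusted p = 0.194), St3gal4 (-0.58, limma, adjusted p = 0.111), Thbs1 (0.69, limma, adjusted p = 0.208), Zyx (-0.50, limma, adjusted p = 0.155), Cd74 (0.52, limma, adjusted p = 0.175) and Adam8 (0.68, limma, adjusted p = 0.183). St3gal4, like St3gal6 a sialyltransferase of selectin ligands, was at 29.5, 35.0 and 27.5 FPKM in DKO and 46.5, 42.7 and 47.8 FPKM in WT Mo-MDSCs, without overlap. Cd74, a surface partner of Cd44 that B cells express strongly, was at 5001 to 5381 FPKM in DKO and 3422 to 3861 FPKM in WT Mo-MDSCs. The B cell sums overlapped between these groups, and the red-pulp macrophage sums did not, being higher in DKO samples as given above. Of those 7 macrophage markers limma called only Hmox1, at 2233 to 2844 FPKM in DKO and 1242 to 1266 FPKM in WT samples. Spic did not overlap either, while Adgre1, Vcam1, C1qa, C1qb and C1qc each did. The part of B cells and macrophages in the Cd74 values was not tested.

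Genes whose levels ran most like those of the 9 across the samples were sought among 11726 genes by Pearson's r over the 9 samples, which share 1 grouping, so high values are common and are given as a description. For Itgb2 they were Hcls1 (r = 0.997) and Rhog (0.997), for Selplg Sepn1 (0.998) and Pnpla2 (0.998), and for Cd44 Arhgap25 (0.997) and Picalm (0.997). Itgam ran with Plaur (0.987), the urokinase receptor, and Irak3 (0.987), Itgal with Palm (0.989) and Fmnl1 (0.988), and Itgax with Nek6 (0.995) and Nlrp3 (0.995). For Itgb7 they were Trem2 (0.996) and Depdc7 (0.995), for Itga4 Etv3 (0.989) and Rnmt (0.988), and for Itgb1 Ccdc88a (0.992) and Degs2 (0.985). Within the 9 genes, the closest pairs were Itgb2 with Selplg (0.987), Itgax with Cd44 (0.983), Itgam with Itgal (0.962), Itgb1 with Itgb7 (0.916) and Itga4 with Itgb7 (0.895).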

How the data were processed

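Splenic MDSCs were profiled by stranded mRNA sequencing in 3 groups of 3 samples. The authors mapped single-end reads to mm10 with TopHat2 2.0.13, Bowtie2 2.2.3 and SAMtools 0.1.19 and deposited FPKM values per gene from Cuffnorm 2.2.1 (versions from the submitters' processing notes). The gene annotation and library scaling are not given in the sources used here.

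Deposited FPKM values were used without further scaling. For each comparison, genes that reached 1 FPKM in 3 or more of its 6 samples were fitted as log2(FPKM + 0.1) with limma 3.58.1 (R 4.3.3, eBayes with a trend, no covariates), and Benjamini-Hochberg adjusted p-values were taken over all genes tested. All 9 adhesion genes passed the filter in both comparisons. The script was tested on simulated data. Ratios within samples were compared by two-sided exact permutation tests without pairing (scipy 1.17.1). Depth in reads is unknown, and precision was read from the standard errors on the log2 scale (median 0.118 for WT Mo- against PMN-MDSCs, 0.122 for DKO against WT Mo-MDSCs).

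The 9 genes, the adhesion list and the marker lists were chosen with earlier results of these data known. Named genes were the 9, in each group of the adhesion list up to 3 called genes in each direction with the largest fold changes or else the gene with the smallest p, Cdkn1a and Cdkn2a, defining markers, and for each of the 9 genes the 2 others with the highest r. Itgad was named as a partner chain of Itgb2, and Fut7, Vcl, Spn and Fn1 in the DKO comparison were named after their values were seen. A gene of the adhesion list that this rule names is not reported here. Whether replicate numbers paired the samples was checked by correlating deviations from the group means across genes. For WT Mo- and PMN-MDSCs, same-numbered samples gave r of 0.294, 0.483 and 0.200. The numbers were thus taken to pair these samples, with the data and not the labels as the source. The main limma fit, the SDs and the exact permutation tests did not use this pairing. Only the replicate block did, and the permutation p-values are those of unpaired groups.

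Alternatives were other pseudocounts, filters and scalings, a fit of all samples, no trend, the replicate block, replicates 2 and 3 only, leaving out each sample, and the thresholds of the study. The last were a fold above 2 or below 0.75 with an unadjusted p below 0.05, both applied to each comparison.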

Additional observations from a re-analysis of the deposited data

How the results depend on the processing

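In WT Mo- against PMN-MDSCs, 7 to 9 of the 9 genes were called under every alternative and all 9 kept their direction. Itgam was lost without a filter on low values (limma, adjusted p = 0.0658), without the trend (limma, adjusted p = 0.0551), under quantile normalization, within replicates 2 and 3 and when any of 4 single samples was left out, with values between -0.83 and -0.50 over all samples left out. Itgal was lost under quantile normalization only. The study used a fold above 2 for Mo- over PMN-MDSCs, and a fold below 0.75 only for DKO against WT cells. Applied together here with an unadjusted limma p below 0.05, these cuts passed 7 of the 9, 1 higher and 6 lower. Over all 11491 genes, 408 passed as higher and 2038 as lower. The cause of the lost calls was not tested.

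Between the genotypes, no alternative called any of the 9 genes (0 of 9 in each). Signs turned for Itgb2 under quantile normalization (0.00288) and for Itgb1 under quantile normalization (0.0849) and upper-quartile scaling (0.0263), and with single samples left out Itgb1 ranged from -0.0509 to 0.0227 and Cd44 from -0.0230 to 0.0614. The adhesion list had 6 genes under the thresholds of the study and 0 under the others.

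The replicate block kept the 9 calls in WT Mo- against PMN-MDSCs, Itgam included at -0.67 (limma, adjusted p = 9.84e-05), and raised the calls of the adhesion list from 34 to 51 while those over all genes went from 4492 to 6584 of 11491. For DKO against WT Mo-MDSCs the correlations of same-numbered samples were 0.348, 0.226 and -0.070, so the numbers were not taken to pair these samples. What same-numbered samples share was not settled, since replicate 1 of each group lies in the earlier run of library numbers. The block there called 0 of the 9 genes and 20 genes in all, against 29 without it. Over the alternatives the list count ran from 26 to 51. Depth in reads is unknown, which limits what can be said of low genes such as Selp and Cdkn2a.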
